A study of Rattus norvegicus with 12 samples.

Results

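Control liver was compared with control renal cortex, tissue against tissue, in rats that had received only the vehicle of a trichloroethylene (TCE) study. The 3 arrays titled as liver controls and the 3 titled as kidney controls were taken by their titles, 6 of the 12 arrays of the series. The donors were male rats of a Wistar-derived colony, a strain that the labels also name F-344 (Wistar-derived), aged 7 to 9 weeks and weighing 190 to 240 g. They were given corn oil alone by mouth at 5 ml/kg a day for 3 days and were kept singly in metabolic cages, as were the TCE rats, which received 16 mg/kg a day in the same oil. About 50 mg of liver and of renal cortex was taken from each rat, and total RNA was run on GeneChip Rat Genome 230 2.0 arrays, which read each transcript with a set of short oligonucleotide probes. Both tissues came from the same 3 control rats, but the labels do not say which liver array and which kidney array share a rat. The study asked how TCE acts on each tissue, and the untreated contrast described here shows what those tissues express without it.

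The liver makes most plasma proteins, clears drugs and hormones, converts ammonia to urea, forms bile acids from cholesterol and releases glucose between meals. The renal cortex holds glomeruli and the long folded proximal tubules, which recover glucose, amino acids, phosphate and filtered protein and secrete organic ions, together with stretches of the thick ascending limb, distal tubule and collecting duct. Both organs carry out gluconeogenesis, both are rich in mitochondria and peroxisomes, and hepatocytes and tubule cells share some of their transcription factors.

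The deposited values are log2 signals. No pair of arrays held identical values, and the arrays correlated at Pearson r of 0.9926 to 0.995 within liver, 0.9955 to 0.9967 within renal cortex and 0.8513 to 0.8616 between tissues over all probe sets. The array medians were 3.51 to 3.54 in liver and 3.92 to 3.95 in renal cortex, a gap between tissues that was left in place and that bears on small differences. As a measure of RNA quality, the 3′ over 5′ signal gap of the control probe sets for Gapdh was 0.814 ± 0.0398 in liver and 0.971 ± 0.11 in renal cortex (SD, n = 3 each; exact two-sided permutation p = 0.2, the smallest possible p being 0.1). For beta-actin the gap was far wider in both tissues, 4.64 ± 0.521 in liver and 4.48 ± 0.0795 in renal cortex. On the liver arrays it was 5.24, 4.31 and 4.36, widest on replicate 1. The mean signal of the spiked-in poly-A controls was 10.51, 12.43 and 12.28 on the liver arrays and 12.76, 12.83 and 13.3 on the renal cortex arrays (exact two-sided permutation p = 0.1, the smallest possible). Every liver array lay below every renal cortex array, with liver replicate 1 the lowest, and the part of this in the tissue differences was not tested.

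One array stood apart in a way that touches the tissue comparison. Renal cortex control replicate 2 carried more signal for transcripts of hepatocytes. The albumin gene Alb read 9.89, 12.8 and 7.84 on renal cortex replicates 1, 2 and 3, and haptoglobin, Hp, read 3.42, 7.51 and 2.64. Their tissue differences (log2, liver minus renal cortex) were 6.14 and 11.35 with this array and 7.45 and 12.84 without it. Replicate 2 was the highest of the 3 renal cortex arrays for 30 of 38 plasma protein genes and for 13 of 15 hepatocyte markers, and for 3542 of all 10650 genes tested. The median of the plasma protein genes was 4.06, 6.76 and 3.08 on these arrays. The same array was also the highest for all 6 of a group of transporters of the early proximal tubule, picked after their values were seen (Slc5a2, Slc5a12, Slc34a3, Slc7a7, Slc7a8 and Slc4a4). Because they were picked in this way, their count is no measure of the segment. Other proximal tubule carriers were mixed, Slc7a9 reading 10.86, 11.82 and 10.77 but Slc9a3 10.77, 10.17 and 10.38. Slc5a2, the glucose carrier SGLT2, read 8.38, 10.12 and 8.36. The differences of Slc5a12 and Slc34a3 were -5.32 and -4.15 with this array and -4.6 and -3.49 without it. Whether a trace of liver RNA, the place of the cut in the cortex or another difference lay behind either pattern was not tested. Where leaving out this array moved a named difference by more than 1.5-fold or changed its call, the value without it is given beside it.

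**Figure D1:**
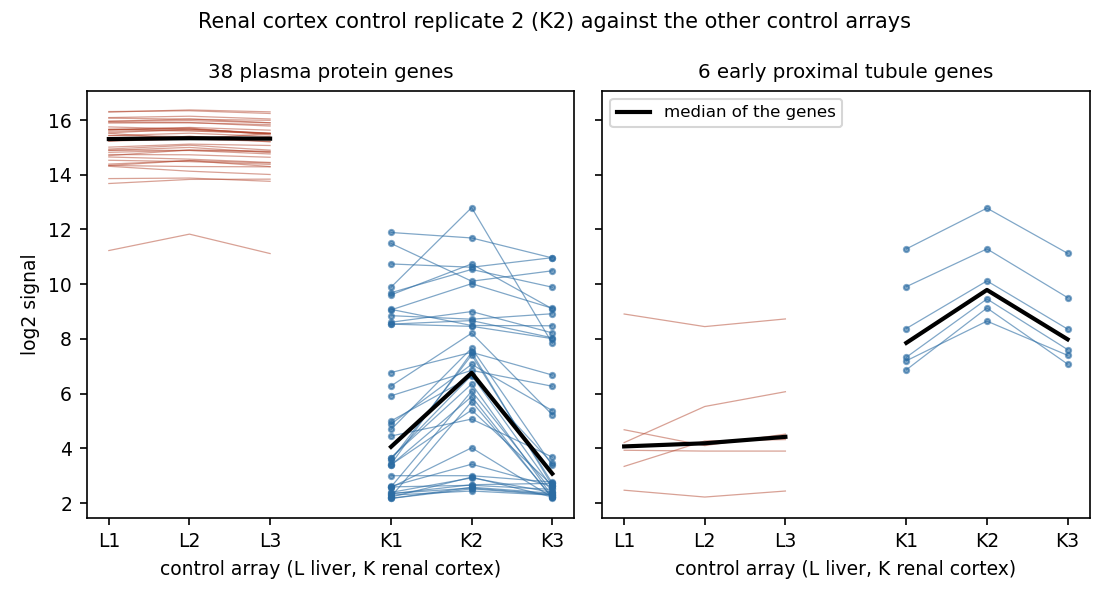
Log2 signal on the 3 control liver arrays (L1 to L3, red) and the 3 control renal cortex arrays (K1 to K3, blue) for 38 plasma protein genes, left, and 6 early proximal tubule genes, right; each thin line is 1 gene and the black line is the median of the genes. On K2 the plasma protein median was 6.76, against 4.06 on K1 and 3.08 on K3, while the liver lines stay level. The 6 tubule genes, picked after their values were seen, peak on the same array.

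The tissues differed at most of the genes measured. Of 14217 genes with a singly named probe set, 10650 passed the filter on low values, and 7308 of these (68.6%) had a limma adjusted p under 0.05. Liver was higher at 3162 genes (29.7%) and renal cortex at 4146 (38.9%), and at 8067 genes (75.7%) the 3 arrays of one tissue lay wholly above those of the other. The log2 difference, always given as liver minus renal cortex, had quartiles of -0.89 and 0.56 and ran from -12.68 to 12.72, with a median standard error (SE) of 0.13. Renal cortex held more of the called genes at every fold up to 64, and liver more at 128-fold. At 2-fold or more, 1740 genes were higher in liver and 2406 in renal cortex, at 8-fold 572 and 906, at 64-fold 242 and 254, and at 128-fold 189 and 155. The direction of small differences depended on scale. Liver held 43.3% of the called genes on the deposited scale, 51% after quantile normalization and 65% when each array was centred on its own median, which moved the median difference of all genes from -0.1 to 0.32.

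**Figure D2:**
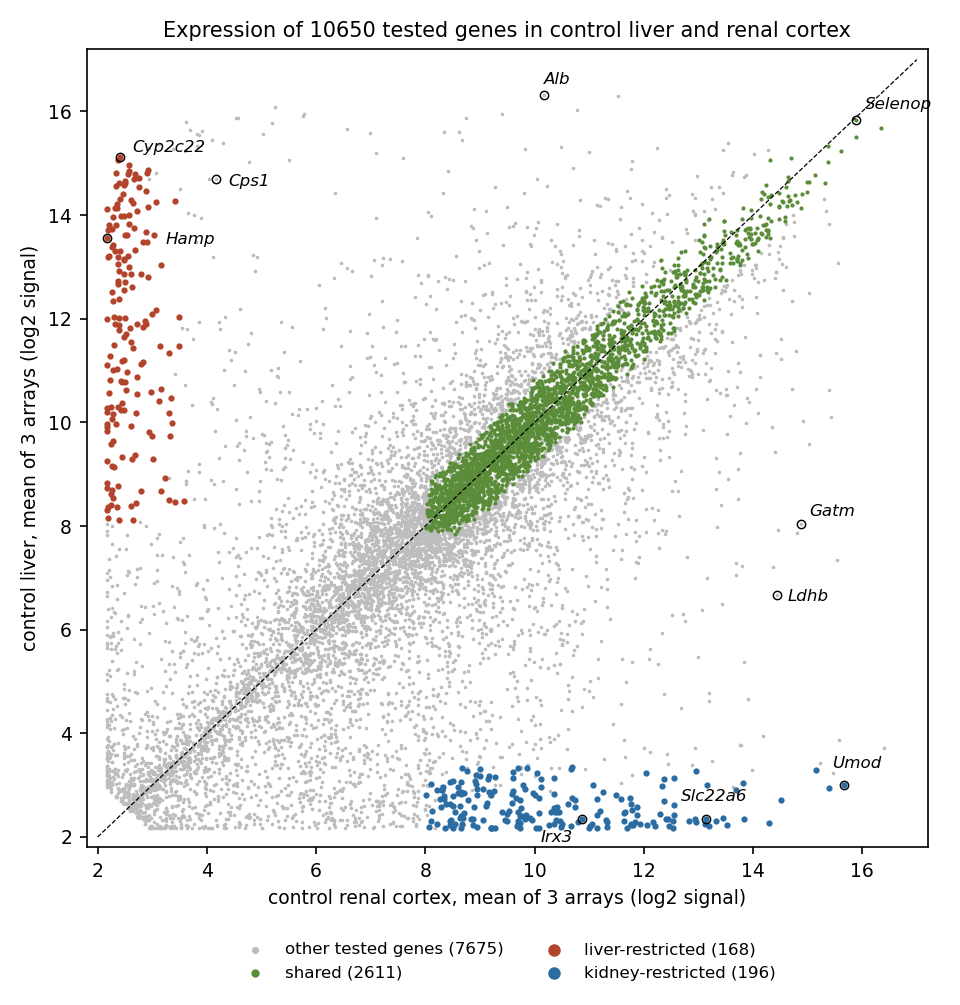
Mean log2 signal of each of the 10650 tested genes in control renal cortex, horizontal axis, and control liver, vertical axis (3 arrays each); the dashed line marks equal values and circles mark the labelled genes. The 168 liver-restricted genes lie along the left edge, the 196 kidney-restricted genes along the bottom, and the 2611 shared genes follow the diagonal.

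A gene was called restricted to a tissue when it passed the test, lay above the upper quartile of all probe sets on all 3 arrays of that tissue, and lay below the median of all probe sets on all 3 arrays of the other. There were 168 liver-restricted genes (1.58% of those tested) and 196 kidney-restricted genes (1.84%). Folds are lower bounds, set against the mean of the dim tissue's array medians (3.93 in renal cortex and 3.52 in liver). They ran from at least 18-fold to at least 2350-fold in liver, with a median of 250, and from at least 22.6-fold to at least 4550-fold in renal cortex, with a median of 82.6. Without renal cortex replicate 2, the liver-restricted genes numbered 196. Leaving out any other single control array gave 170 or more.

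The liver-restricted genes with the largest differences were plasma proteins, complement components and cytochromes P450. Cyp2c22, a cytochrome P450, read 15.27, 15.07 and 15.05 in liver and 2.21, 2.84 and 2.19 in renal cortex. It was at least 2350-fold higher in liver, a difference of 12.72 ± 0.2 (SE, n = 3 arrays a tissue; limma adjusted p = 1.329e-07). Itih4, a heavy chain of the inter-alpha-trypsin inhibitor family, read 15.01, 15.12 and 15.07 against 2.17, 2.58 and 2.36. Apoa1, the main protein of high-density lipoprotein, read 14.7, 14.91 and 14.86 against 2.29, 2.44 and 2.29, and Plg, the precursor of plasmin, differed by 12.41 ± 0.17. On these genes the renal cortex arrays lay at or near the bottom of the scale, and the tissues were far from overlapping. C9, of the complement attack complex, differed by 12.27, and C4bpa, a complement inhibitor, by 12.09. Orm1, an acute-phase protein, differed by 12.23, the secreted ribonuclease Ang by 12.25 and Inhca, a transferrin-like plasma protein, by 12.22. Tdo2, which opens tryptophan breakdown, differed by 12.03, and Pon1, an esterase carried on high-density lipoprotein, by 11.95. The other 4 of the first 15 were the P450 genes Cyp2a2, Cyp3a23-3a1, Cyp2c13 and Cyp3a2, at differences of 12.14, 12.11, 12.1 and 11.96. Members of the P450, glucuronosyltransferase and sulfotransferase families are close in sequence, so a probe set named for one may also read its relatives, which was not tested.

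The kidney-restricted genes with the largest differences were transporters, brush border enzymes and proteins of the thick ascending limb. Umod, uromodulin of the thick ascending limb and the chief protein of urine, read 3.01 on all 3 liver arrays and 15.77, 15.61 and 15.65 in renal cortex. It was at least 4550-fold higher in renal cortex, a difference of -12.66 ± 0.07 (limma adjusted p = 1.439e-08). Slc3a1, a subunit of the transporter that recovers cystine, read 2.67, 3.04 and 3.13 against 15.48, 15.37 and 15.33. Slc12a1, the sodium-potassium-chloride carrier blocked by loop diuretics, read 2.17, 2.23 and 2.42 against 14.4, 14 and 14.47. In each case the liver arrays stayed within the dim range and the renal cortex arrays differed little among themselves. Cltrn, collectrin, a partner of amino acid carriers, differed by -11.86 ± 0.11, and Ggt1, the brush border enzyme that splits glutathione, by -11.81 ± 0.22. Defb1, a defensin, differed by -11.49, Slco1a3, an organic anion carrier, by -11.29, and Hnmt, which methylates histamine, by -11.09. Calb1, the calcium binder of the distal tubule, differed by -11.02, Cldn10, a junction claudin, by -10.98, and the kidney cadherin Cdh16 by -10.87. The organic anion and cation carriers Slc22a6 and Slc22a2 differed by -10.79 and -10.78, the membrane protease Mep1a by -10.76 and the potassium channel Kcnj16 by -10.66.

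Promoters of a few of these genes are shown because restricted genes of both tissues carried the same short words that liver-enriched factors are known to bind. The sequences are the 150 bases before the start in RefSeq, assembly GRCr8, 5′ to 3′ on the strand of the gene, with every match to a searched word in capitals. The words were GTTAAT, the core of the HNF1 site, in Plg and Cltrn, and TTGCACAA, a C/EBP word, with TATAAA in Orm1. They were CAAAGTCCA, an HNF4 word, in Cyp3a23-3a1 and Slc3a1, the latter also with TATAAA on both strands, and CCGCCC, a GC box, in Gpx1 and Eef1a1, which are shared genes shown for contrast. A match may lie on either strand, and then reads as ATTAAC, TTGTGCAA, TGGACTTTG or GGGCGG. On the other strand TATAAA reads as TTTATA.
Plg, liver-restricted, chr1:50915407-50915556, minus strand: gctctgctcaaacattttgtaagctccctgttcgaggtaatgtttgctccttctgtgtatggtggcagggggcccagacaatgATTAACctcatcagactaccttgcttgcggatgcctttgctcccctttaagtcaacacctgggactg
Orm1, liver-restricted, chr5:81788359-81788508, plus strand: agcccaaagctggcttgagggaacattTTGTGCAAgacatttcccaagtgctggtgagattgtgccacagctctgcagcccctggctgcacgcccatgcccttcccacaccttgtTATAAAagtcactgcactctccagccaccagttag
Cyp3a23-3a1, liver-restricted, chr12:14398804-14398953, minus strand: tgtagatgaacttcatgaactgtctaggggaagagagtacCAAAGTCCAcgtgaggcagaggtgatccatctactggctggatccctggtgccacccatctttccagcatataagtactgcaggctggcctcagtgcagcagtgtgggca
Slc3a1, kidney-restricted, chr6:15394750-15394899, minus strand: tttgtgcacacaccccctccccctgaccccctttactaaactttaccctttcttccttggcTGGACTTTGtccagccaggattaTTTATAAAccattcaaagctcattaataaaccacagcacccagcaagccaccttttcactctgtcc
Cltrn, kidney-restricted, chrX:34027125-34027274, minus strand: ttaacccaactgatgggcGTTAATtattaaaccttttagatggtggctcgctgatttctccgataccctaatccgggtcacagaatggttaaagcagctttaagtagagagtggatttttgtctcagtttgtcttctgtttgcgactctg
Gpx1, shared, chr8:117905312-117905461, plus strand: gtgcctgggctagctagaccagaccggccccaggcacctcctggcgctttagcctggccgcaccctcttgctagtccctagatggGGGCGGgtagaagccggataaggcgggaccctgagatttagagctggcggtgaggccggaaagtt
Eef1a1, shared, chr8:88225070-88225219, minus strand: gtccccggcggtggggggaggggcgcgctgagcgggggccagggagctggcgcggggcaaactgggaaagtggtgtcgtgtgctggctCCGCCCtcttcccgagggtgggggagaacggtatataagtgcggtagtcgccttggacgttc

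The first base of the match lay 67 bases before the start in Plg, 123 in Orm1, 110 in Cyp3a23-3a1, 89 in Slc3a1 and 132 in Cltrn. RefSeq promoters, each 250 bases before to 50 after a start, were found for 133 of the 168 liver-restricted, 157 of the 196 kidney-restricted and 2253 of the 2611 shared genes. GTTAAT on either strand occurred in 12% of the liver-restricted, 10.2% of the kidney-restricted and 4.66% of the shared promoters, and in 7.45% of all 33469 promoters of that table. CAAAGTCCA occurred in 3 liver-restricted promoters (2.26%) and 2 kidney-restricted ones (1.27%), against 0.355% of shared and 0.391% of all promoters. Any of the C/EBP words TTGCGCAA, TTGCGAAA and TTGCACAA occurred in 3.01%, 1.91% and 1.2% of the liver-restricted, kidney-restricted and shared promoters, and in 1.19% of all. The full HNF1 palindrome, which is GTTAAT followed by any base and ATTAAC, occurred in 1 promoter of the whole table, that of the liver-restricted gene C5l1. The GC box CCGCCC ran the other way, at 21.1% of liver-restricted, 42.7% of kidney-restricted and 65.6% of shared promoters, against 33.1% of all. TATAAA occurred in 21.8%, 14% and 5.73%, against 14.2% of all. Shared promoters held a median of 23 CG dinucleotides in 300 bases, kidney-restricted ones 11 and liver-restricted ones 4. These shares are descriptions without a test, and a matched word is not a bound site.

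**Figure D3:**
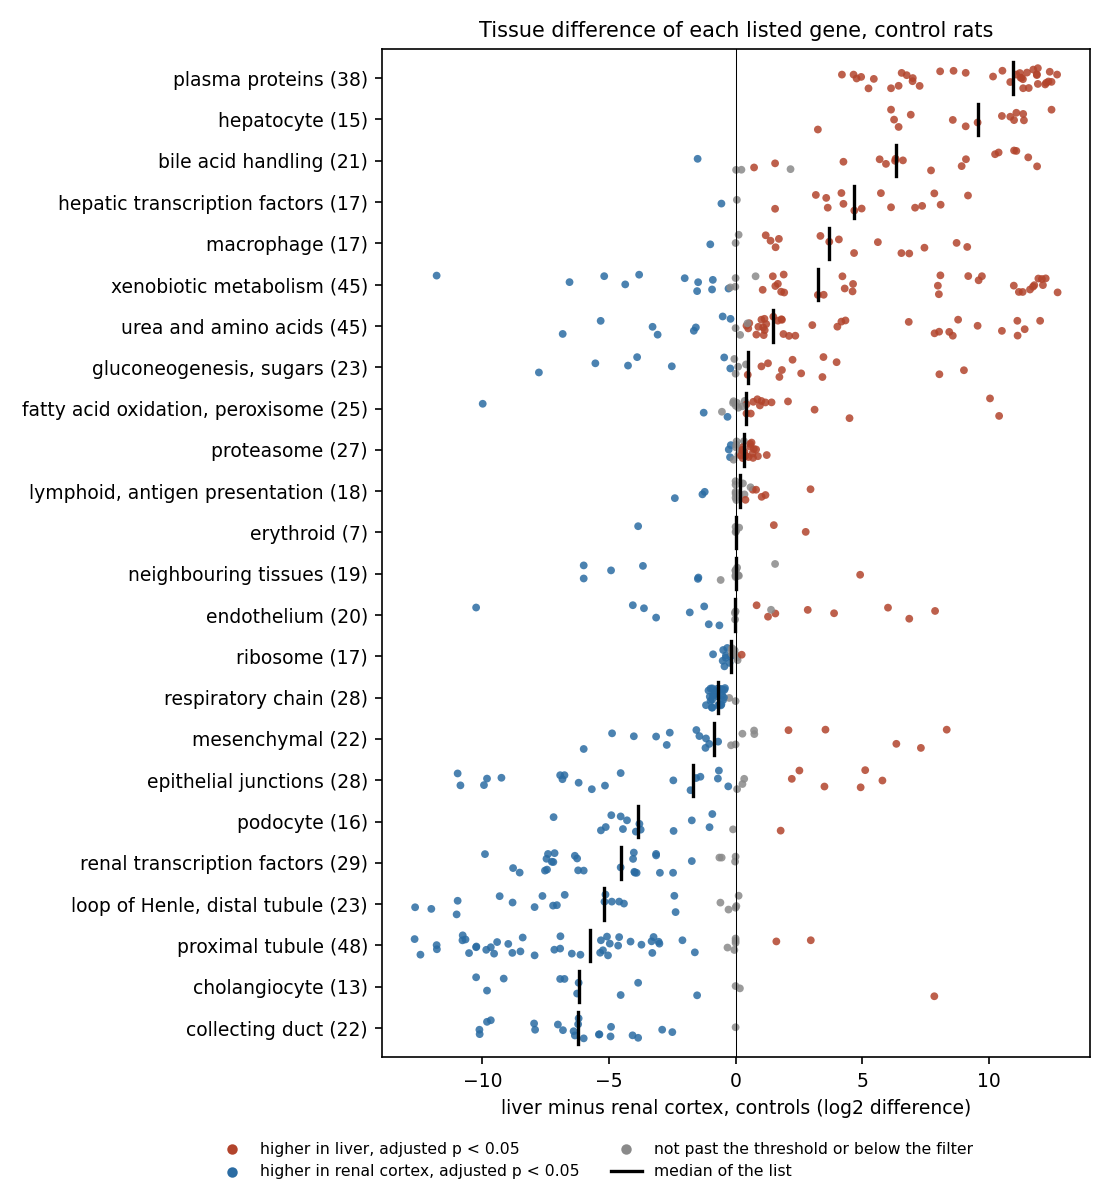
Log2 difference, control liver minus control renal cortex, of each gene with a singly named probe set on 24 lists, ordered by the median of the list (black bar; number of genes in brackets); red and blue points passed the test in the direction of liver and of renal cortex. Plasma proteins (median 10.97) stand at the top and collecting duct genes (median -6.21) at the bottom, with proteasome, ribosome and respiratory chain genes close to 0.

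The defining markers went with the labels, all 15 hepatocyte markers being higher in liver with a median of 9.56. Counts on this and the later lists stand beside 29.7% of all tested genes higher in liver, 38.9% higher in renal cortex and 24.5% shared. Plasma proteins were higher in liver throughout. All 38 plasma protein genes with a probe set passed the test toward liver, with differences of 4.2 to 12.7 and a median of 10.97, beside 29.7% and a median of -0.1 over all genes tested. Of them, 10 met the restricted rule, which asks that every renal cortex array lie below its median. Apoa2, an apolipoprotein, read 15.75, 15.67 and 15.5 in liver and 2.59, 6.09 and 2.42 in renal cortex, so that its difference was 11.94 ± 1, and 13.13 without that array. Serpina3n, a serine protease inhibitor, was free of this spread, at 14.34, 14.3 and 14.29 against 2.35, 2.55 and 2.32. Some plasma proteins also had clear signal in renal cortex. Rbp4, the carrier of vitamin A, read 10.74, 10.62 and 10.97 there, and Gc, the vitamin D binding protein, 11.89, 11.69 and 10.96, below 15.99 to 16.07 and 16.24 to 16.34 in liver. Igf1, the growth factor released under growth hormone, had the smallest difference of the list, 4.2 ± 0.35.

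Bile acid genes followed, with 17 of 19 tested members higher in liver, 6 of them liver-restricted, and a median of 6.32 over the 21 with a probe set. Baat, which joins bile acids to glycine or taurine, differed by 11.91 ± 0.23, Slc27a5, which activates them, by 11.56, and Abcb11, the bile salt export pump, by 10.39. Cyp7a1, the rate-limiting enzyme of bile acid synthesis, read 12.39, 9.7 and 11.22 in liver and 2.17 on all renal cortex arrays (liver SD 1.35). Slc10a1 and Slco1b2, which draw bile acids from blood, differed by 11 and 10.25. The organic anion carrier Slco1a1 was the 1 member higher in renal cortex, at -1.5 ± 0.08.

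Genes of drug and toxin metabolism split between the tissues. Of 43 tested, 30 were higher in liver and 11 in renal cortex, with a median of 3.25 over the 45 with a probe set. Besides the P450 genes above, Cyp1a2 differed by 10.99, the glucuronosyltransferase Ugt2b1 by 9.73 and the sulfotransferase Sult1c3 by 11.19. Cyp2e1, the P450 that acts on ethanol and on TCE, was high in liver at 15.06, 14.98 and 15.09 but also read 11.81, 12.16 and 11.4 in renal cortex, a difference of 3.25 ± 0.19. On the renal side, Cyp4a8 and Cyp4a3 of the fatty acid hydroxylases differed by -6.56 ± 0.44 and -1.52 ± 0.11, and Cyp2c23, the arachidonate epoxygenase, by -1.48 ± 0.32. Cyp4a1, of the same hydroxylases, was higher in liver at 1.8 ± 0.21. Glutathione enzymes fell on both sides. Ggt1 differed by -11.81, the transferase Gstp1 by -5.19 ± 0.13, the acetyltransferase Nat8 by -4.36 ± 0.33 and Gsta3 by -3.81 ± 0.47, whereas Gstm1 and Gstm2 were higher in liver, at 4.64 and 4.31. Of 15 tested genes named Gst, a grouping by symbol made after the data were seen, 7 were higher in liver and 6 in renal cortex. The shares over all genes were 29.7% and 38.9%. Grouped in the same way, 35 of 44 tested genes named Cyp were higher in liver and 5 in renal cortex.

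Amino acid breakdown and the urea cycle were mainly hepatic, with a renal minority. Of 44 tested genes, 34 were higher in liver and 8 in renal cortex. The first steps of urea synthesis were hepatic by a wide margin. Otc, which forms citrulline, read 13.54, 13.45 and 13.19 against 2.19, 2.42 and 2.19, and Nags, which makes the activator of the cycle, differed by 8.44 ± 0.1. Cps1, which fixes ammonia, read 14.75, 14.51 and 14.81 against 3.9, 6.15 and 2.45, a difference of 10.52 ± 0.91, and 11.52 without renal cortex replicate 2. The later enzymes Ass1 and Asl, which turn citrulline into arginine, had high signals in both tissues, 13.68 to 14.18 and 10.63 to 11.16 in renal cortex, with differences of 0.9 ± 0.18 and 1.11 ± 0.15. Among genes of methionine use, Mat1a differed by 11.42 ± 0.12 and Bhmt, which remakes methionine from betaine, by 6.84 ± 0.34, while Cbs and Cth, which carry homocysteine to cysteine, differed by 1.14 and 1.09. The histidine enzymes Uroc1 and Hal were liver-restricted, at 11.14 and 8.79. On the renal side stood Gatm, which starts creatine synthesis, at -6.83 ± 0.24, Miox, the oxygenase that breaks down inositol, at -5.33 ± 0.11, the D-amino acid oxidase Dao at -3.28 ± 0.09 and Agxt2 at -3.08. Glul and Oat, of glutamine and ornithine, were higher in renal cortex by smaller margins, -1.65 and -1.57.

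Of 22 tested genes of gluconeogenesis and sugar use, 12 were higher in liver, 7 were higher in renal cortex and 3 did not pass. The shared rule, which a called gene can also meet, was met by 5 of the 22, beside 24.5% of all genes. Pck1, the control enzyme of gluconeogenesis, read 14.68, 14.52 and 14.47 in liver and 14.62, 14.68 and 14.51 in renal cortex, and the interval of its difference, -0.27 to 0.17, lay well within 2-fold. With arrays centred it passed the test toward liver at 0.36. Fbp1, a later step, was shared at -0.45 ± 0.1 (-0.04 and not past the threshold with arrays centred), and Khk, which phosphorylates fructose, had an interval of -0.11 to 0.31 (higher in liver at 0.51 with arrays centred). Gckr, the regulator of glucokinase, was at least 242-fold higher in liver, and the glycogen branching enzyme Gbe1 differed by 2.25 and the glucose carrier Slc2a2 by 3.47 ± 0.37. The hexokinase Hk1, phosphofructokinase Pfkm and aldolase Aldoa were on the renal side, at -5.54, -4.25 and -3.89.

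Of 24 tested genes of fatty acid oxidation and the peroxisome, 14 were higher in liver and 3 in renal cortex, 11 met the rule for shared genes, and the median over the 25 with a probe set was 0.43. Cat, the peroxisomal catalase, read 14.65, 14.58 and 14.73 in liver and 14.67, 14.57 and 14.69 in renal cortex, and Acadm and Hadha, of the oxidation spiral, had intervals of -0.08 to 0.3 and -0.3 to 0.14. With arrays centred, Cat, Acadm and Hadha passed the test toward liver at 0.42, 0.52 and 0.33. Other members differed widely. Enzymes of ketone use went in opposite directions, with Bdh1, which interconverts the ketone bodies, at 4.5 ± 0.17 and Oxct1, which lets a cell burn them, at -9.99 ± 0.32, its signal being 3.21, 3.62 and 4.48 in liver and 13.73, 13.79 and 13.77 in renal cortex. Uox, the urate oxidase of rodent liver peroxisomes, was at least 531-fold higher in liver.

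Each segment of the nephron was marked on the renal side. In bulk tissue fewer cells of a type and less RNA in each cannot be told apart. Of 45 tested proximal tubule genes, 41 were higher in renal cortex, beside 38.9% of all genes, 16 were kidney-restricted and the median over 48 was -5.74. Kap, the androgen-regulated kidney protein, read 16.4, 16.4 and 16.41 in renal cortex and 4.3, 2.78 and 4.07 in liver, a difference of -12.68 ± 0.4. Slc34a1, the phosphate carrier of the brush border, differed by -11.8 ± 0.12, Slc22a12, the urate carrier, by -10.67 and Aqp1, the water channel, by -10.25. The endocytic receptors Cubn and Lrp2 differed by -9.85 and -7.16. Not all of the list followed. Spp2, a secreted phosphoprotein, and the sulfate carrier Slc26a1 were higher in liver, at 2.97 ± 0.45 and 1.61 ± 0.21, and the organic anion carrier Slc22a8 read 12.05, 12.48 and 12.41 in liver and 12.12, 13.01 and 11.97 in renal cortex, with overlapping arrays and an interval of -0.8 to 0.69 (0.27 without renal cortex replicate 2). The glucose carrier Slc5a1 and the vitamin D hydroxylase Cyp27b1 read 2.18 and 2.17 on all 6 arrays, at the bottom of the scale, and were not tested.

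Of 20 tested genes of the thick ascending limb and distal tubule, 18 were higher in renal cortex, 11 of them kidney-restricted. Next to Umod and Slc12a1 stood the potassium channel Kcnj1 at -7.63, the magnesium-route claudin Cldn16 at -7.21, the thiazide-sensitive carrier Slc12a3 at -8.81 and the kallikrein Klk1 at -9.32. Egf, a growth factor of the distal tubule, read 15.01, 14.73 and 15.01 in renal cortex and 10.29, 9.99 and 9.8 in liver. All 21 tested collecting duct genes were higher in renal cortex, 9 of them kidney-restricted, with a median of -6.21 over 22. They covered principal cells, as with the water channel Aqp2 at -10.12 ± 0.24, and intercalated cells, as with the proton pump subunits Atp6v1g3 at -10.11 and Atp6v0a4 at -9.67, the chloride exchanger Slc26a4 at -7.02 and the ammonia channel Rhcg at -7.92. Aqp2 read 12.93, 12.03 and 12.68, lowest on renal cortex replicate 2. Genes of the inner medulla, the deeper zone, were also measurable. The urea carrier Slc14a2 read 8.97, 7.32 and 6.05 over the renal cortex arrays, a wide spread, and Aqp4 8.9, 7.78 and 7.84. Of 16 tested podocyte genes 14 were higher in renal cortex, among them the slit protein Nphs1 at -5.13 ± 0.11, the transcription factor Wt1 at -4.54 and Podxl, which coats the foot processes, at -4.91, but only Dach1 was kidney-restricted. Plce1, a phospholipase linked to podocytes, was higher in liver at 1.78 ± 0.34.

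Transcription factors differed between the tissues as well. Of 16 tested factors of hepatocytes, 15 were higher in liver, with a median of 4.69 over the 17 with a probe set. Creb3l3, an endoplasmic reticulum factor, differed by 9.18 ± 0.18, Foxa2, a forkhead pioneer factor, by 8.1 ± 0.39, the nuclear receptors Nr5a2 and Nr1i3 by 7.37 and 7.09, and the C/EBP factors Cebpa and Cebpb by 4.18 and 3.17. Onecut1, a cut-homeobox factor, read 11, 11.54 and 7.79 in liver, replicate 3 lying far below the others, and 2.23, 2.33 and 2.23 in renal cortex. Hnf4a alone ran the other way. It read 12.91, 13.1 and 13.21 in liver and 13.64, 13.67 and 13.58 in renal cortex, a difference of -0.56 ± 0.1 that met the shared rule, and with arrays centred on their medians it was -0.15 and no longer past the threshold, as with the mean of its probe sets (-0.22). Of 26 tested factors of kidney epithelium, 25 were higher in renal cortex and 0 in liver, 9 of them restricted. Hoxd8 read 12.12, 12.17 and 12.23 against 2.28 on all liver arrays, and Pou3f3, Irx3, Hoxd10, Hoxa9 and Emx2 differed by -8.79, -8.53, -7.53, -7.47 and -7.45. Pax8, a founder of the kidney lineage, differed by -7.41 ± 0.33. Counted by symbol after the data were seen, 15 of 18 tested Hox genes were higher in renal cortex, 0 in liver and 7 were kidney-restricted.

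Markers of the other cell types in the tissues did not divide as simply. Of 15 tested macrophage genes 14 were higher in liver, 5 of them liver-restricted, led by the Kupffer cell genes Cd5l at 9.15 ± 0.2, Clec4f, a lectin, at 8.73 ± 0.14 and the hemoglobin scavenger receptor Cd163 at 6.55. Lyz2, lysozyme, was higher in renal cortex at -1 ± 0.17. Endothelial genes were split 8 to 8 of 20, beside 29.7% of all genes higher in liver and 38.9% higher in renal cortex. Those higher in renal cortex included Aqp1 at -10.25, which was also counted as a proximal tubule gene. Mrc1, higher in liver, was also counted as a macrophage gene. The split was 11 to 7 toward liver after centring or quantile normalization. Those scalings also raised the liver share of all calls, from 43.3% to 65% and 51%. The genes of liver sinusoids Fcgr2b, Mrc1 and Stab2 were liver-restricted, at 7.88, 6.86 and 6.02, and Lyve1 differed by 3.89, while Emcn, Plvap and Vwf of other vessels differed by -4.06, -3.62 and -3.14. Of 20 mesenchymal genes, 12 were higher in renal cortex and 5 in liver, beside 38.9% and 29.7% of all genes. The stellate cell genes Lrat, which stores vitamin A as ester, and Reln, with the collectin Colec11, were liver-restricted at 6.35, 7.32 and 8.34, whereas decorin, Dcn, differed by -4.88 and the smooth muscle gene Tagln by -4.02. Genes used as bile duct markers, such as Krt7 and Spp1, were higher in renal cortex in 10 of 12 cases and are known from renal tubules too. The lymphoid list also holds class II genes and neutrophil genes such as S100a8 and S100a9, so its counts are not counts of lymphocyte genes. Of its 18 genes with a probe set 8 lay below the filter, among them the T cell genes Cd3d and Cd4 and the B cell gene Ms4a1. The class II gene Cd74 read 13.14, 13.31 and 13.14 in renal cortex and 10.44, 10.81 and 11.15 in liver. Of the 10 tested genes of the lymphoid list 6 were higher in liver and 3 in renal cortex. Without renal cortex replicate 2 the counts were 3 and 3 of 11 tested. Of 3 tested red cell genes, Hbb and Alas2 were higher in liver at 1.51 ± 0.39 and 2.77 ± 0.43 and Slc4a1, an anion exchanger that intercalated cells also express, was higher in renal cortex at -3.85, with 4 more below the filter. Without liver replicate 3 Hbb no longer passed (limma adjusted p = 0.0545). Of 8 tested genes of neighbouring organs and the inner medulla, 6 were higher in renal cortex, among them Fabp4 of fat at -3.66 ± 0.77, and 1 in liver, the steroid enzyme Cyp17a1 at 4.92 ± 0.57. Adrenal Cyp11b1 and pancreatic Cpa1 and Ins2 lay at the lowest value on all 6 arrays.

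Of 28 tested epithelial junction genes, 19 were higher in renal cortex and 6 in liver. The connexin Gjb1 and keratin Krt18 were higher in liver at 5.8 and 5.12, with Cldn14 at 4.94, and Cldn8, Cdh16, Prom1 and Epcam were higher in renal cortex at -9.25, -10.87, -9.94 and -6.93. Keratin Krt8, the partner of Krt18, and the scaffold Tjp1 met the shared rule, with intervals of -0.11 to 0.65 and -0.31 to 0.43. With arrays centred both passed the test toward liver, at 0.68 and 0.47.

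Members of a gene family could differ in opposite directions. The pairs were listed with earlier results of these data known, so their counts give no rate for gene families at large. Of 50 listed pairs, most of them enzymes or carriers of one family, 34 had both members tested, and 21 of these were switched, both members passing the test in opposite directions. A switched member could still have high signal in both tissues, as with Hao2 at 13.88 to 14.31 in liver and 15.29 to 15.41 in renal cortex. A further 3 pairs were both higher in liver, 2 both higher in renal cortex and 8 had at most 1 member past the threshold. The other 16 could not be judged, because 14 had a member without a singly named probe set and 2 had a member below the filter. Among energy enzymes, the lactate dehydrogenase subunit Ldha read 14.23, 14.41 and 14.37 in liver and 11.88, 11.74 and 11.6 in renal cortex, while Ldhb read 6.68, 6.46 and 6.89 against 14.49, 14.42 and 14.42. The differences were 2.59 ± 0.1 and -7.77 ± 0.12. Glycogen synthase and phosphorylase switched together, with Gys2 at 8.05 and Gys1 at -3.79, and Pygl at 3.99 and Pygb at -4.63. Pdk4, a brake on pyruvate oxidation, was higher in liver at 3.39 ± 0.33, and its relative Pdk2 in renal cortex at -0.56 ± 0.13, the 1 pair in which the member listed as renal was the hepatic one. Pdk2 and the cadherin Cdh1, though switched, also met the rule for shared genes, and with arrays centred neither passed the test (-0.15 and -0.25).

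Other switched pairs lay in lipid, amino acid and water handling. Fabp1, the liver fatty acid binder, differed by 12.19 ± 0.91 (13.28 without renal cortex replicate 2) and the heart-type binder Fabp3 by -8.2 ± 0.36. Aqp9, the hepatic glycerol and water channel, read 11.71, 11.87 and 12.06 against 2.3, 2.3 and 2.58, and Aqp1 4.57, 3.7 and 3.56 against 14.35, 14.05 and 14.16. Mat1a differed by 11.42 ± 0.12 and Mat2a, the form of the same synthetase found in most tissues, by -4.44 ± 0.33. For arginase, cytosolic Arg1 differed by 9.56 ± 0.25 and mitochondrial Arg2 by -7.39 ± 0.13. Creatine synthesis was divided by step, Gatm at -6.83 and Gamt, which finishes it, at 2.36 ± 0.1. Agxt and Agxt2 differed by 7.86 and -3.08, and Hao1 and Hao2 by 10.05 ± 0.69 (10.87 without renal cortex replicate 2) and -1.26 ± 0.12. Transport pairs were switched as well, Slc22a7 and Slc22a6 at 4.28 and -10.79, Slc2a2 and Slc2a1 at 3.47 and -2.63, Slc13a5 and Slc13a2 at 2.38 and -5.24, and Abcc6 and Abcc4 at 3.87 and -3.24. Slc13a5 had low signal even in liver, at 5.34, 5.05 and 4.2, below the upper quartile of those arrays (7.83). In renal cortex it read 2.5, 2.42 and 2.53. Carbonic anhydrase Car3 differed by 10.59 ± 1.44, or 12.29 without renal cortex replicate 2, where it read 8.58 against 4 and 2.98 on the others, and Car2 by -5.38 ± 0.2. Sult1c3 and Sult1c2 stood at 11.19 and -2.01, Cyp2c11 and Cyp2c23 at 4.22 and -1.48, Igf1 and Egf at 4.2 and -4.89, Cldn1 and Cldn4 at 3.51 and -4.54, and the cadherins Cdh2 and Cdh1 at 2.22 and -0.66. Where a pair was not switched, one member was often common to both tissues. The cortisone reductase Hsd11b1 had an interval of -0.09 to 0.27 (higher in liver at 0.5 with arrays centred), beside Hsd11b2, which inactivates glucocorticoid in the distal nephron, at -6.4 ± 0.15. The transferrin receptor Tfrc was shared (-0.91 to 0.01) beside the liver form Tfr2 at 8.29 ± 0.29. Acss3 was shared (-0.11 to 0.55), though higher in liver at 0.36 without renal cortex replicate 2 and at 0.63 with arrays centred, beside the acetate enzyme Acss1 at -8.59 ± 0.34. The phosphofructokinase Pfkl, the liver form by name, was slightly higher in renal cortex at -0.21 ± 0.07, a call that was lost after quantile normalization, with the replicate block (limma adjusted p = 0.0807) and without any 1 of 5 of the 6 arrays (limma adjusted p = 0.0553 to 0.0973), and that reversed when arrays were centred.

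**Figure D4:**
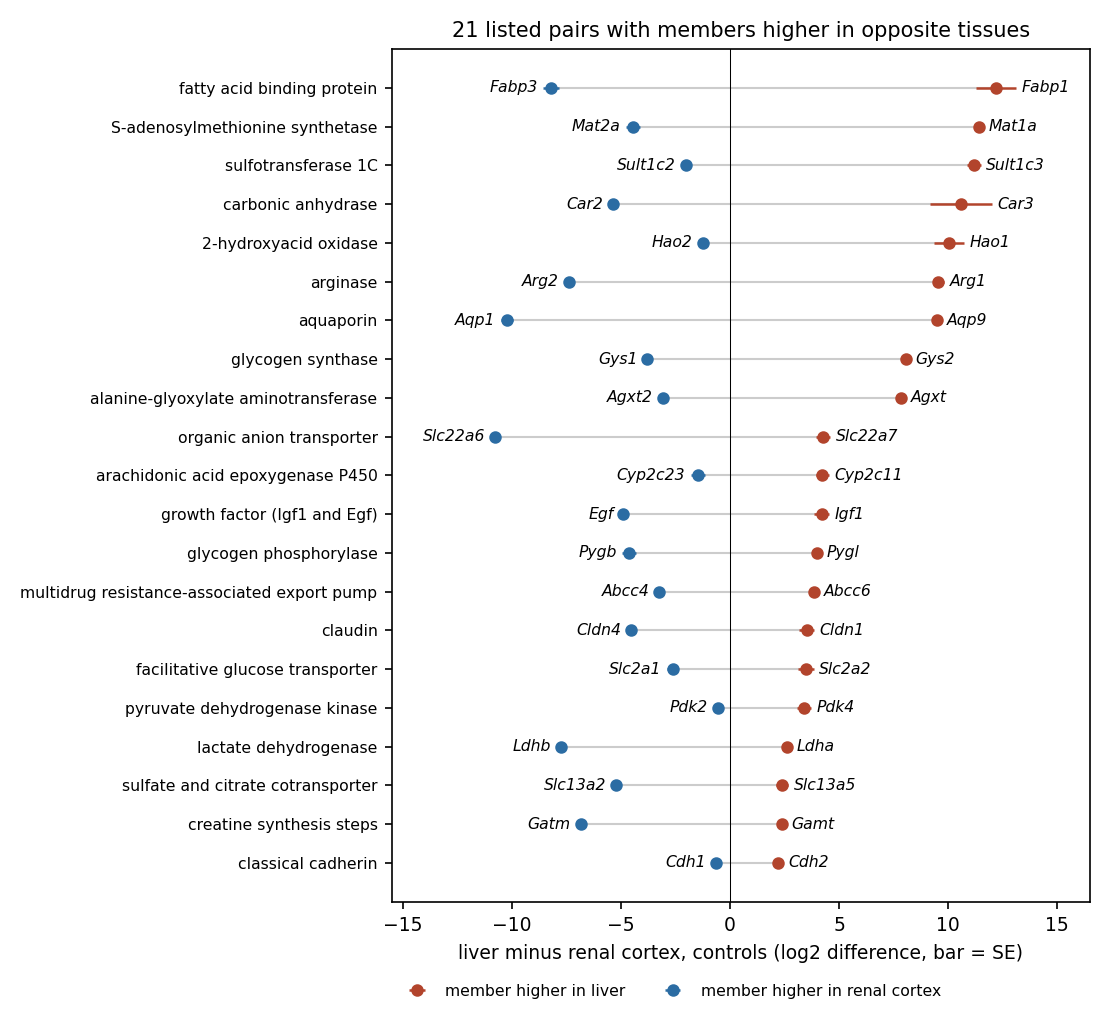
Log2 difference, control liver minus control renal cortex, for both members of the 21 switched pairs (bars are SE, 3 arrays a tissue), the member higher in liver in red and the member higher in renal cortex in blue. The differences reach 12.19 for Fabp1 and -10.79 for Slc22a6, and the smallest on the renal side are -0.56 for Pdk2 and -0.66 for Cdh1.

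Shared genes were those above the upper quartile on all 6 arrays whose 95% confidence interval lay within 2-fold in either direction. There were 2611 (24.5% of those tested), out of 4235 genes above the upper quartile on all 6 arrays, and 1386 of them still passed the test of a difference. Their median absolute difference was 0.3. The shared genes with the highest mean were the mitochondrially encoded COX2 and COX1, the selenoprotein gene Selenop, Rps29, Eef1a1, Rida, Atp5mc3, Chchd10, Gpx1 and Cox7b. Selenop, the selenium carrier of plasma, read 15.81, 15.78 and 15.92 in liver and 15.85, 15.92 and 15.91 in renal cortex, an interval of -0.23 to 0.12, although the mean of its probe sets was higher in liver by 0.93. With arrays centred it was higher in liver at 0.36. Gpx1, the selenium-dependent peroxidase, differed by 0.42 ± 0.12, a call lost after quantile normalization and without any 1 of 4 of the arrays.

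The machinery common to all cells showed small differences. Of 28 respiratory chain and ATP synthase genes, 26 were higher in renal cortex and 0 in liver, with differences between -1.17 and 0, and 16 were shared. Sdhc, a subunit of succinate dehydrogenase, differed by -1.17 ± 0.1, Atp5po, of ATP synthase, by -1.07 ± 0.09 and Ndufs1, of complex I, by -1.02 ± 0.07. With arrays centred on their medians 14 of the 28 were higher in renal cortex and 1 in liver, and after quantile normalization 27 and 1. Ribosomal protein genes were higher in renal cortex in 9 of 17 cases and in liver in 1, beside 38.9% and 29.7% of all genes. Of the 17, 16 were shared, and this direction flipped with centring, to 1 and 9. Proteasome genes leaned to liver, at 18 of 27 against 3, with 23 shared, and at 25 and 0 after centring and 13 and 3 after quantile normalization. Psmb2, of the catalytic core, had the largest difference of that list, 1.23 ± 0.09.

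Different probe sets of a gene could disagree. Of 14148 singly named probe sets tested on their own, 9123 (64.5%) passed the threshold, and 1310 genes had more than 1 that passed. Of these 1216 had all such probe sets in one direction and 94 (7.18%) had them in both. The count of 94 was 155 after centring, 205 after quantile normalization, and 61, 58 and 62 without renal cortex replicate 1, renal cortex replicate 3 and liver replicate 2. Masp2, a protease of the lectin pathway of complement, had one probe set at 12.23 in liver and 2.2 in renal cortex (means of 3), a difference of 10.02 ± 0.09, and another at -0.44 ± 0.09. The second had the higher mean over the 12 arrays and so stood for the gene in the table. Gas6, a growth factor ligand, had probe sets at 2.26 ± 0.34 and -2.57 ± 0.24, and Tmem276, a membrane protein gene, at 1.21 ± 0.2 and -2.26 ± 0.13. The citrate synthase gene Cs had probe sets at 0.41 and -2.19 and Eri2 at 0.31 and -2.73. Cnst, Mapre3, Fam117b, Pheta1 and Car11 completed the 10 widest gaps, of 2.83, 2.64, 2.58, 2.56 and 2.55. Probe sets may read different transcript ends or another gene, and the files hold no probe positions with which to tell.

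The same tissue comparison in the 3 TCE rats gave nearly the same picture from arrays that the control comparison did not use. Of the same 10650 genes, 7183 (67.4%) passed the test, 3278 higher in liver and 3905 in renal cortex. The genes called in the same direction in both comparisons numbered 6193, which is 84.7% of the control calls and 86.2% of the TCE calls, and 11 were called in opposite directions. The differences correlated at r = 0.9864 across genes, which are not independent replicates. Of the restricted genes, 157 of 168 in liver and 170 of 196 in renal cortex met the rule again, and 2287 of the 2611 shared genes did. In TCE rats Cyp2c22 differed by 12.35 and Umod by -12.91. Alb differed by 6.14 ± 1.2 in controls and 9.11 ± 1.63 in TCE rats, in which renal cortex read 10.96, 4.36 and 6.31.

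Few genes passed the test of a change in the tissue difference between control and TCE rats. With 3 arrays a group, a gene that missed the threshold was not shown to be unchanged. The difference between the tissue differences passed the limma test at 57 genes (0.535%), the smallest adjusted p being 0.0118. Of the 10650 genes tested, 1852 had an unadjusted p under 0.05. Per3, a circadian clock gene, read 3.42, 4.01 and 3.39 in control liver and 6.07, 6.53 and 6.14 in TCE liver, beside 7.06 to 7.2 and 7.48 to 7.81 in renal cortex, so that its tissue difference was -3.51 in controls and -1.39 in TCE rats. Tagln moved from -4.02 to -2.66 and St6galnac3, a sialyltransferase, from -5.01 to -6.37. Phaf1, an autophagy factor gene, was higher in liver in controls at 2.01 ± 0.16 and read lower in liver in TCE rats at -0.51, where it did not pass the test. RNA quality also differed between the groups compared. The Gapdh 3′ over 5′ gap was 0.78, 0.8 and 0.86 in control liver and 1.7, 1.56 and 1.21 in TCE liver. In renal cortex it was 1.02, 0.85 and 1.05 in controls and 0.59, 0.87 and 0.51 in TCE rats. The part of this in the changed tissue differences was not tested. The calls of a changed difference rested on few arrays. Leaving out 1 of the 12 arrays gave between 8 and 93 such genes, 8 without renal cortex control replicate 1 or renal cortex TCE replicate 1.

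**Figure D5:**
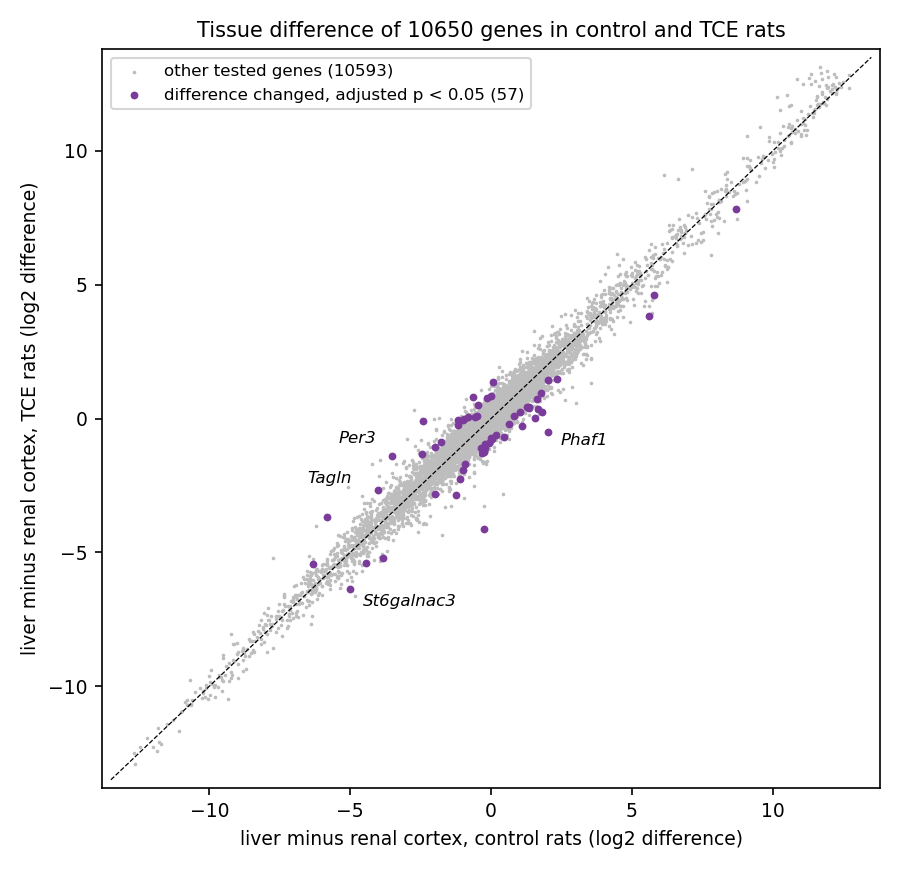
Log2 difference, liver minus renal cortex, of the 10650 tested genes in control rats, horizontal axis, and in TCE rats, vertical axis (3 arrays a tissue in each); the dashed line marks equal differences and purple points are the 57 genes whose difference changed. Most points follow the line over the whole range. The purple points leave it, as with Per3 at -3.51 and -1.39 and Phaf1 at 2.01 and -0.51.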

How the data were processed

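Liver and renal cortex RNA was hybridised to 12 arrays, and 6 from control rats were compared. The authors deposited 1 table of log2 signals for 31099 probe sets, made with affy and limma per the submitters' processing notes; no version or further step is given in the sources used here, and the log2 scale was read from the values. The values were used as deposited. Of the probe sets, 20826 carried 1 gene symbol, 436 several and 9780 none, and 57 were controls. A gene was represented by its probe set with the highest mean over the 12 arrays. Genes with a control mean above the 40th percentile of all probe sets (2.553) were tested with limma 3.58.1 (R 4.3.3; linear fit with eBayes, two-sided, Benjamini-Hochberg adjustment over all genes tested, threshold 0.05), a step tested on simulated data. The number of arrays, 3 a tissue, limits the precision.

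The named genes were the 15 restricted genes with the largest difference in each tissue, up to 8 members of each list and up to 6 against its majority, all pair members, 10 shared genes, 10 genes with opposed probe sets and 8 with a changed tissue difference. Another 46 were named after their values were seen. Members and lists were chosen with earlier results of these data known. Equal replicate numbers were not taken as pairs, since the labels do not give the pairing. Deviations from the tissue mean correlated at 0.06, 0.05 and 0.08 between same-numbered arrays of the tissues. Between arrays of different numbers they correlated at -0.06 to -0.01. The labels name no separate cultures or batches, and p-values measure the spread between these rats. Alternatives covered the filter, probe set choice, normalization, variance model, replicate block, call rules and left-out arrays.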

Additional observations from a re-analysis of the deposited data

Results flagged for a closer look

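The tissue difference (liver minus renal cortex) of 11 named genes differed between control and TCE rats by limma's test of the difference between differences (adjusted over all genes tested). For 6 genes the adjusted p was 0.01178, the smallest in the table. Per3 stood at -3.51 in controls and -1.39 in TCE rats, a change of 2.11 ± 0.25 (SE). Phaf1, at 2.01 and -0.51, changed by -2.52 ± 0.28. Tagln, at -4.02 and -2.66, changed by 1.36 ± 0.16. St6galnac3, at -5.01 and -6.37, changed by -1.35 ± 0.15. Magt1, at 1.65 and 0.34, changed by -1.31 ± 0.16. Hmmr, at -0.98 and -0.05, changed by 0.93 ± 0.11. It read 2.17, the lowest value of the arrays, on all control and TCE liver arrays. In renal cortex it read 3.01, 3.27 and 3.16 in controls and 2.23, 2.17 and 2.27 in TCE rats. All of these lay below the array medians, at or near the bottom of the scale.

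The other 5 had larger adjusted p-values. Msra, at -1.26 and -2.84, changed by -1.58 ± 0.2 and Myo18a, at -2 and -1.08, by 0.92 ± 0.12, both at limma adjusted p = 0.01414. The respiratory chain gene Uqcrc2, at -0.92 and -1.71, changed by -0.79 ± 0.11 (limma adjusted p = 0.01929). The anion exchanger gene Slc4a1, at -3.85 and -5.22, changed by -1.38 ± 0.24 (limma adjusted p = 0.04213). The podocyte gene Ptpro, at -4.45 and -5.41, changed by -0.95 ± 0.18 (limma adjusted p = 0.0497). The part of RNA quality, which differed between control and TCE arrays, in the changes of all these genes was not tested.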

How the results depend on the processing

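Over 335 named genes and 3985 alternative values, 3857 kept direction and side of the threshold, 72 fell out of the call, 15 entered it and 41 changed sign. Centring arrays on their medians turned genes near 0: Chchd10 0.05, COX1 0.38, Cox7b 0.03, Eef1a1 0.03, Fam117b 0.05, Fgfr4 0.32, Hadha 0.33, Hadhb 0.09, Pck1 0.36, Pfkl 0.2, Psma7 0.22, Psmc2 0.14, Psmd2 0.19, Rida 0.07, Rpl27 0.02, Rpl3 0.08, Rpl5 0.03, Rps29 0.03, Selenop 0.36, Slc22a8 0.36 and Slc9a2 0.16. Quantile normalization gave Acadm -0.08, Cat -0.2, Hsd11b1 -0.12, Khk -0.06 and Tjp1 -0.05. Averaging the probe sets of a gene gave Fam117b 0.93, Hadha 0.14, Masp2 6.4, Selenop 0.93, Slc22a8 1.1 and Tmem276 -0.08. Leaving out 1 array turned 5 genes. Cat ran from -0.03 (without renal cortex 2 or liver 3) to 0.04, Fmo5 from -0.26 (without liver 3) to 0.48, Slc22a8 from -0.25 to 0.27 (without renal cortex 2; 0.08 without liver 1), Tjp1 from -0.1 (without liver 1) to 0.17 and Tmem276 from -0.04 (without liver 3; -0.03 without renal cortex 1 or 2) to 0.23.

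The number of differing genes was 4146 at 2-fold or more (1740 higher in liver, 2406 in renal cortex), and 5256 were higher in liver after centring. Opposed probe sets were found for 155 genes after centring and 205 after quantile normalization. A shared interval within 1.5-fold left 1398 genes, fewer by construction, and a dim level at the 40th percentile left 44 liver-restricted and 61 kidney-restricted genes. Alternatives added after seeing the data gave 14 respiratory chain and 1 ribosomal gene higher in renal cortex after centring. They gave 3 genes of the lymphoid list higher in liver without renal cortex replicate 2.

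Leaving out 1 array gave 6622 to 7008 differing genes (2835 to 3048 higher in liver, 3767 to 3960 in renal cortex), 170 to 196 liver-restricted, 198 to 213 kidney-restricted and 2502 to 2574 shared genes, 21 to 22 switched pairs and 58 to 84 genes with opposed probe sets. The restricted rule asks for every array, so it is easier to meet with 1 left out. Leaving out 1 array also gave 6527 to 6887 differing genes in TCE rats and 8 to 93 changed tissue differences. With the replicate number as a block, 6995 genes differed (3028 higher in liver, 3967 in renal cortex), 22 pairs were switched and 76 genes had opposed probe sets. The deviations of every array from its tissue mean correlated best with those of the same number in the other tissue. This is a hint from the data and not from the design. The causes of these shifts were not tested.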
